A study of Schizosaccharomyces pombe with 40 samples.

Results

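The genes described here encode RNA polymerase II subunits in the fission yeast Schizosaccharomyces pombe. They were taken by name, rpb1 to rpb10 in the gene name column, and all 10 names were found once each among the 7013 genes of the table. Their identifiers, in the order rpb1 to rpb10, are SPBC28F2.12, SPAC23G3.01, SPCC1442.10c, SPBC337.14, SPAC23C4.15, SPCC1020.04c, SPACUNK4.06c, SPBC14C8.12, SPAPYUG7.04c and SPAC1B3.12c. RNA polymerase II transcribes the protein-coding genes of the nucleus. Rpb1 and Rpb2 form its active site, and Rpb1 also carries the repetitive C-terminal tail that is phosphorylated during the transcription cycle. Rpb3 is part of the scaffold on which the enzyme is assembled, Rpb4 and Rpb7 form a stalk that binds the emerging RNA, and Rpb9 takes part in transcript cleavage and fidelity. Rpb5, Rpb6, Rpb8 and Rpb10 are also built into RNA polymerases I and III.

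The series asked how loss of the elongation factor ELL (ell1), its partner EAF (eaf1) and the associated protein Ebp1 (ebp1) alters transcription. PolyA RNA of 17 libraries was used, from cells in rich medium at mid log phase, and the 23 chromatin samples were not analysed here. Strain ED666 is h+ with ade6-M210, ura4-D18 and leu1-32, and it gave 3 wild-type libraries, 3 with ebp1 replaced by kanMX6 and 3 with eaf1 replaced by kanMX6. The same strain was used for another set, marked by the suffix b in its replicate names and written ED666b below, with 2 wild-type libraries and 2 with ell1 replaced by kanMX6. Strain Pem2 is h- and carries the same ade6, leu1 and ura4 alleles together with mat1_m-cyhS, smt0 and rpl42::cyhR(sP56Q). It gave 2 wild-type libraries and 2 with ell1 replaced by natMX6. Nothing in the labels tells if replicates came from separate cultures. A p-value here therefore reflects the spread among these samples alone, and that spread may be technical.

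The ED666 libraries held 6486554 to 9193169 reads each, and those of ED666b and Pem2 held 35337271 to 43374049. Levels are in scaled CPM, in which a read counts equally for every gene of a library, or in the authors' RPKM where genes are compared per length. Both were scaled separately by the authors for the 9 ED666 libraries and for the other 8. The deleted genes fell in their own deletions, by 2.74 for ebp1 and 1.19 for eaf1 in ED666, and for ell1 by 2.03 in ED666b and 1.29 in Pem2 (log2, limma adjusted p = 8.87e-09, 5.31e-05, 2.26e-05 and 0.0028). Of these 4 calls, that of ell1 in Pem2 ended when only its own 4 libraries were fitted. No label explains the code on the ebp1Δ columns, and they were assigned by elimination of the other samples. The ura4 gene, absent from ura4-D18 strains, had 0 reads in every library but eaf1Δ replicate 3, which had 32 (3.597 scaled CPM). Without that library 0 of the 10 members were called in eaf1Δ, and 21 genes in place of 52. Without eaf1Δ replicate 2, which had 0 ura4 reads, 24 genes were called. The summed level of 6 M-cell genes was 111 to 156 scaled CPM over the h+ libraries and 166 to 337 over the h- libraries, while 3 P-cell genes summed to 32.7 to 75.3 and 37.3 to 46.5. The P-cell sums thus did not separate h+ from h-. Among the M-cell genes mfm2, a gene for the M-factor pheromone, was at 22.3 to 114 in Pem2 and at 2.56 to 6.496 in the others. It is part of the M-cell sum and so no separate check. In ell1Δ of Pem2 that sum was 166 to 206, with mfm2 at 22.3 to 39.2. In wild-type ED666b it was 148 to 153, with mfm2 at 4.79 to 5.01. No sum without mfm2 was taken, so whether the other M-cell genes separated h+ from h- was not tested.

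Per length, the subunit RNAs were not present in equal amounts. The highest was rpb10, with RPKM of 309.7 at the lowest, 342 at the median and 375 at the highest over the 17 libraries. Next was rpb6, the subunit that joins the clamp to the rest of the enzyme, at 303, 317 and 337. Then came rpb8 (155, 195 and 230.1) and rpb5 (164, 183 and 193). These 4 highest genes are the 4 whose proteins are shared with polymerases I and III. The stalk genes followed, rpb4 at 144, 173 and 192 and rpb7 at 111, 123 and 142. The catalytic pair stood lower, with rpb1 at 75.8, 89.5 and 105 and rpb2 at 64.9, 72.8 and 84.2. At the bottom were rpb9 (36.4, 42.6 and 51.2) and rpb3 (33.0, 36.6 and 39.8). The mean over libraries of the highest gene was 9.32 times that of the lowest. The last place of rpb3 and this ratio depend on the length of 4022 bases by which its reads were divided. In scaled CPM, which is not per length, the rpb3 median was 147. It was above the medians of rpb4 (141), rpb7 (118) and rpb9 (35.2), and that of rpb1 was the highest (477).

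Some neighbours in this order did not separate in every library. The rpb10 level was above rpb6 in 14 of 17 libraries, rpb8 above rpb5 in 13, rpb5 above rpb4 in 14, rpb1 above rpb2 in 14 and rpb9 above rpb3 in 11. In the other steps, rpb6 over rpb8, rpb4 over rpb7, rpb7 over rpb1 and rpb2 over rpb9, the order held in all 17. The lowest of the 4 shared subunits exceeded the highest of the other 6 in 14 libraries. The mean RPKM of the shared subunits was 2.67 to 3.05 times that of the other 6, with a median of 2.93 over libraries. The lengths behind these RPKM were 761 to 973 bases for the shared subunit genes. The other 6 include the long genes rpb1, rpb3 and rpb2, at 5327, 4022 and 3757 bases. The part of length in this ratio was not tested.

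**Figure D1:**
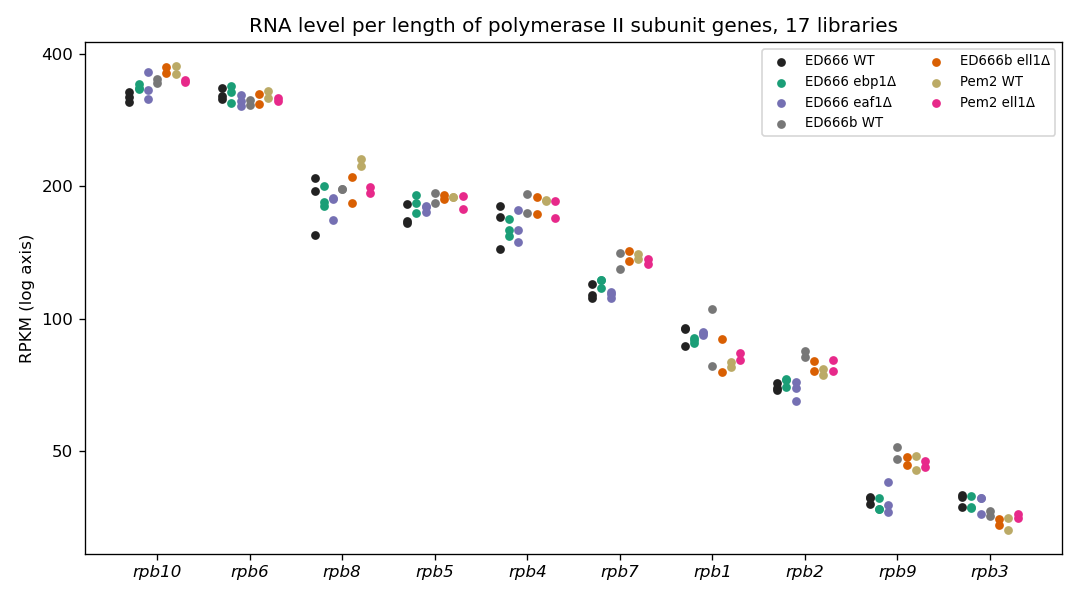
RPKM (log axis) of the 10 subunit genes, ordered by their mean, in all 17 libraries; each point is 1 library, coloured by group. The genes span from a median of 342 for rpb10 to 36.6 for rpb3, and rpb9 lies between 36.4 and 51.2.

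Several of these genes overlap others. Use of the strand in counting was not given in the sources used here, and reads of overlapping genes may not be told apart. In the RefSeq annotation, which is of a later build and is used only for neighbours, the whole of trp3 lies inside rpb3 on the opposite strand. Reads counted for trp3 were 1.45 to 2.74 times those for rpb3 in the same library. The trp3 level was 216 scaled CPM in ED666 wild type 3, against 328 and 356 in wild types 1 and 2, while rpb3 was at 149.7, 159.9 and 158. The length that the file gives for rpb3, by which its RPKM is divided, is 4022 bases, against 761 to 973 for the 7 smaller subunits. The rpb7 gene lies within the gene named syn1 in the file, again on the opposite strand (syn1 with 1.72 to 2.31 times the reads of rpb7). The last bases of rpb9 overlap mid2 on the same strand, and mid2 had 9.98 to 17.4 times its reads. The antisense RNA SPNCRNA.1021 spans rpb9 and had 0.315 to 0.64 times its reads. The antisense RNA SPNCRNA.1496 overlaps rpb8, with 0.0583 to 0.105 times the reads of rpb8. These 4 genes are reported as uncertain for this reason.

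The genes that complete the enzyme had levels of the same order. The rpb11 gene, for the partner of Rpb3, was at 151 to 189 RPKM. The name rpb12 was not in the table, but RefSeq gives it as another name of rpc10, a subunit of all 3 polymerases, which was at 193 to 254 RPKM. For rpc19 and rpc40, the counterparts of Rpb11 and Rpb3 in polymerases I and III, the ranges were 148 to 204 and 178 to 254 RPKM.

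Levels of the subunit genes varied little from library to library. The summed level of all 10 was 1987 to 2216 scaled CPM, which is 0.195% to 0.217% of reads. The SD of log2(scaled CPM + 1) over the 17 libraries had a median of 0.11 over the members and 0.18 over the 6160 genes tested, and each of the 10 lay below that latter value. Over 3817 other genes with mean levels between the lowest and the highest member (35.3 to 468 scaled CPM) the median was 0.15. Within groups, limma gave each gene a moderated residual SD, drawn toward a value common to all genes. This SD had a median of 0.07 over the members and 0.12 over all tested genes. Over the 3817 genes of like level it was 0.10, and rpb8 (0.120), rpb1 (0.115) and rpb4 (0.110) were above that value. The steadiest member was rpb6 (SD 0.045) and the least steady was rpb9 (SD 0.17). All values are shares of the RNA of a bulk culture, in which fewer cells of a type and less RNA per cell cannot be told apart.

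The rpb9 spread followed the set of libraries. The level was 30.0 to 35.2 scaled CPM in the 9 ED666 libraries and 37.4 to 42.2 in the 8 ED666b and Pem2 libraries, without overlap. The same held for rpb7 (107 to 118 against 125 to 137) and rpb2 (244 to 274 against 279.6 to 316). These were the only 3 members of which that was true. The share of all tested genes separated in that way was not counted, so this number has no background beside it. The 2 sets of columns were scaled separately by the authors and differ in depth, so set, scaling and library cannot be told apart, and no test was made between them. Within the second set, wild-type Pem2 set beside wild-type ED666b gave 224 and 216 against 191 and 191 scaled CPM for rpb8, a ratio of means of 1.15, and 414 and 425 against 416 and 560.2 for rpb1.

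In ebp1Δ every subunit RNA was near its wild-type level. None of the 10 passed the limma test, beside 3.67% of all genes. At an unadjusted p under 0.05 there were 0 of the 10, beside 17% of all genes, and edgeR and DESeq2 on recovered reads also called 0 members. The log2 fold changes ran from -0.04 to 0.09, with a median of 0.01 beside 0.01 over all 6160 genes, and their median size was 0.04 beside 0.10. The estimate furthest from 0 was that of rpb5, the subunit that contacts DNA ahead of the active site. Its level was 168, 177 and 185 scaled CPM in ebp1Δ and 161, 176 and 159 in wild type, so the groups overlapped. The log2 difference was 0.09 (SE 0.06, 95% interval -0.03 to 0.22, limma adjusted p = 0.463).

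Only rpb10 had ebp1Δ libraries all on 1 side of wild type, at 255, 259 and 252 against 242, 249 and 236 scaled CPM (log2 0.08, SE 0.06, limma adjusted p = 0.554). Over all genes 17.4% were separated in that way, 7.73% above wild type and 9.69% below. For rpb1 the level was 480.0, 469 and 477 in ebp1Δ and 508, 503 and 461 in wild type, which overlapped (log2 -0.04, SE 0.09). Its partner rpb2 was at 263, 274 and 272 against 262, 258 and 268 (log2 0.04, SE 0.05). The stalk gene rpb7 was at 118, 118 and 113 against 107, 109 and 116 (log2 0.07, SE 0.05). The other 5 had log2 differences between -0.04 (rpb9) and 0.02 (rpb8). The 95% intervals of the 10 members lay between 0.841-fold and 1.18-fold.

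In eaf1Δ the subunit RNAs were likewise close to wild type. Again 0 of 10 passed by limma, beside 0.844% of all genes, and 0 had an unadjusted p under 0.05, beside 13.1%. Neither edgeR nor DESeq2 called a member. This comparison uses the same wild-type libraries as the one for ebp1Δ. The rpb10 level was 251, 239.9 and 277 scaled CPM in eaf1Δ, which overlapped the wild-type values (log2 0.08, SE 0.06, 95% interval -0.05 to 0.20, limma adjusted p = 0.577). The value of 277 came from replicate 3, the library with ura4 reads, and without that library the log2 difference was 0.02, over the alternatives 0.02 to 0.12. The rpb6 level was 254, 261 and 270.1 against 263, 280.1 and 268 in wild type (log2 -0.05, SE 0.05). No member separated the groups, beside 14.9% of all genes (7.22% above wild type and 7.68% below). The rpb1 level was 493, 497 and 489.8 (log2 0.0084, SE 0.09), inside the wild-type range. The 95% intervals of the 10 members lay between 0.843-fold and 1.16-fold.

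The rpb8 estimates in both ED666 deletions moved with the wild-type libraries used. The wild-type levels of rpb8, a small shared subunit, were 189.5, 203 and 151 scaled CPM in replicates 1, 2 and 3, with 179, 194 and 175 in ebp1Δ and 182, 163 and 182 in eaf1Δ. Wild type 3 was the lowest of these 9 libraries. Without it the log2 difference went from 0.02 to -0.10 in ebp1Δ and from -0.03 to -0.16 in eaf1Δ (limma adjusted p = 0.506 and 0.421; over the alternatives 0.506 to 0.981 and 0.421 to 0.986). Without wild type 2, the highest, it went the other way, to 0.11 in ebp1Δ and 0.05 in eaf1Δ.

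The remaining members varied within narrow bounds in ED666. The rpb3 level was 159.9, 158 and 149.7 scaled CPM in wild type, 149.6, 150.0 and 159 in ebp1Δ, and 144, 157 and 157 in eaf1Δ. The stalk gene rpb4 was at 118, 139 and 147 in wild type, 126, 138 and 129.6 in ebp1Δ, and 122, 130.0 and 144 in eaf1Δ. For both genes the wild-type range overlapped those of the deletions. The rpb9 level was 32.5, 32.3 and 31.3 in wild type, 30.5, 30.5 and 32.3 in ebp1Δ, and 31.1, 35.2 and 30.0 in eaf1Δ. Its highest value came from eaf1Δ replicate 2 and its lowest from eaf1Δ replicate 3. The rpb6 level in ebp1Δ was 282, 274 and 259, on both sides of wild type.

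**Figure D2:**
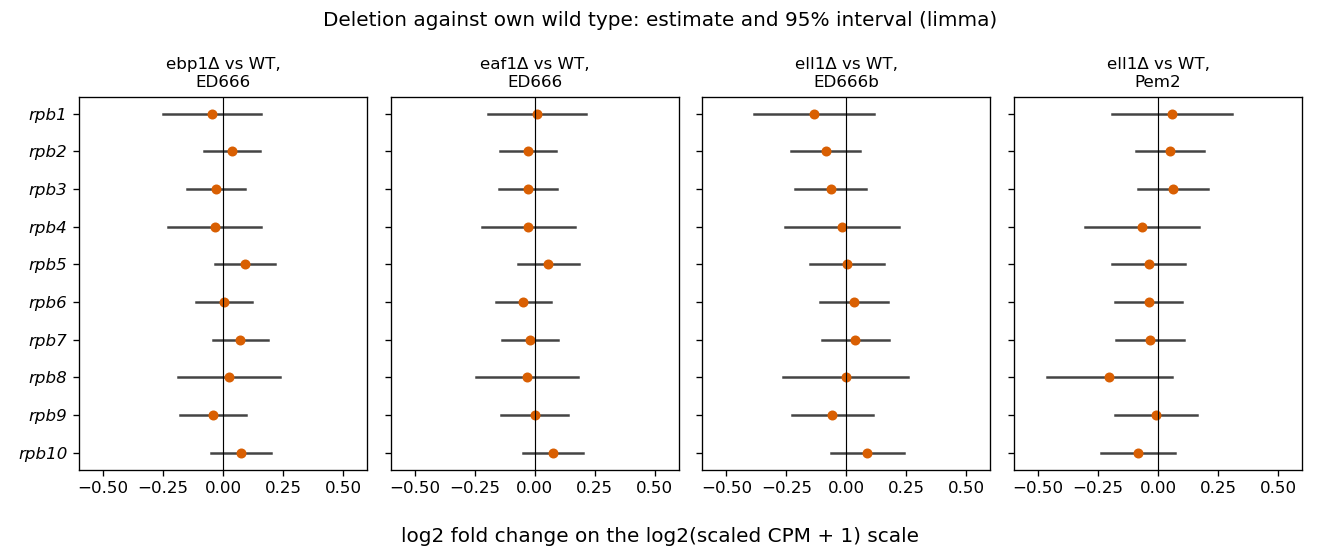
Log2 fold change (point) and 95% interval (line) of each of the 10 subunit genes in each deletion against its own wild type, from the limma model of all 17 libraries on log2(scaled CPM + 1). Every interval includes 0, and the widest reach from -0.46 for rpb8 to 0.31 for rpb1, both in Pem2.

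In ED666b, loss of ell1 gave no called subunit gene either. By limma 0 of 10 passed, beside 0.519% of all genes, and 0 had an unadjusted p under 0.05, beside 5.76%. Both edgeR and DESeq2 called 0 members. The largest estimate was that of rpb1. Its level was 404 and 478 scaled CPM in ell1Δ and 416 and 560.2 in wild type, so replicate 2 was above replicate 1 in both groups and the groups overlapped. Taken by replicate number, the ell1Δ value was the lower each time, though the numbers were treated as names only. The log2 difference was -0.14 (SE 0.12, 95% interval -0.39 to 0.11, limma adjusted p = 0.998). It was -0.35 without wild type 1, -0.26 without ell1Δ replicate 2, -0.02 without ell1Δ replicate 1 and 0.08 without wild type 2, and over its alternatives the adjusted p ran from 0.305 to 1.

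Replicates of ED666b also differed in other long genes. In wild-type ED666b, replicate 2 exceeded replicate 1 by 0.43 (log2) for rpb1, whose length in the file is 5327 bases, and by a median of 0.29 over the 162 tested genes of 5 kb or more, against -0.01 over all genes. In ell1Δ the same differences were 0.24 for rpb1, a median of 0.18 for long genes and -0.00057 for all genes. In other groups rpb1 moved with the long genes in some pairs of replicates and not in others. From replicate 1 to 2 of Pem2 the long-gene median and rpb1 differed by 0.08 and 0.04 in wild type, and by 0.09 and 0.05 in ell1Δ. From ED666 wild type 1 to 3 the values were -0.05 and -0.14. From eaf1Δ replicate 1 to 3 they were 0.11 and -0.0083, and from ebp1Δ replicate 1 to 2 they were 0.07 and -0.03. The shorter rpb2 (3757 bases) was lower in replicate 2 in both ED666b groups, by 0.04 in wild type and 0.07 in ell1Δ. The ratio of rpb1 to rpb2 in RPKM was 0.928 and 1.29 in wild-type ED666b and 0.945 and 1.18 in ell1Δ, beside 1.21 to 1.43 in the 9 ED666 libraries and 0.998 to 1.096 in the 4 Pem2 libraries. The part of transcript length in the rpb1 values was not tested.

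**Figure D3:**
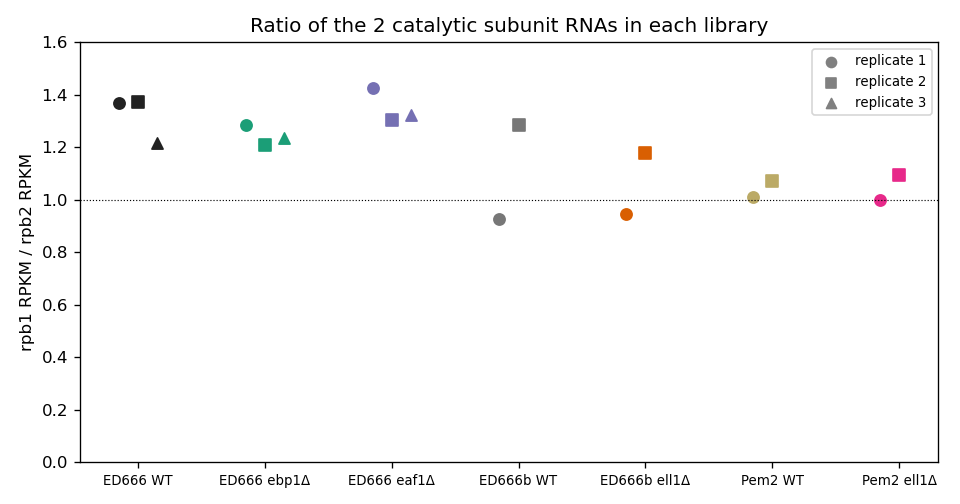
Ratio of rpb1 to rpb2 RPKM in each of the 17 libraries, by group, with the marker shape giving the replicate. In ED666b replicate 1 lies below 1 and replicate 2 above it in both wild type (0.928 and 1.29) and ell1Δ (0.945 and 1.18).

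For 3 members the ell1Δ libraries of ED666b were all on 1 side of wild type, beside 37.7% of all genes (20.3% above and 17.4% below). The rpb10 level was 275 and 284 scaled CPM in ell1Δ and 266 and 260.3 in wild type (log2 0.09, SE 0.07). The rpb2 level was 301 and 286 against 316 and 307 (log2 -0.09, SE 0.07), and the rpb3 level was 141 and 136 against 143 and 147 (log2 -0.06, SE 0.07). Each of the 3 missed the limma test at an adjusted p of 0.998, as did the other 7. The 95% intervals of the 10 members lay between 0.765-fold and 1.196-fold. The lowest bound was that of rpb1, and it may be too narrow, since the SD behind it is shared by all groups.

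In Pem2, loss of ell1 again gave 0 called members by limma, beside 0.244% of all genes. There were 0 members with an unadjusted p under 0.05, beside 4.24% of all genes, and 0 called by edgeR or DESeq2. The estimate furthest from 0 in any of the 4 comparisons was that of rpb8 here. Its level was 187 and 194 scaled CPM in ell1Δ and 224 and 216 in wild type. Both deletion libraries were therefore below both wild-type libraries, and the deletion values matched the 191 and 191 of wild-type ED666b more closely than those of wild-type Pem2. The log2 difference was -0.20 (SE 0.12, 95% interval -0.46 to 0.06, limma adjusted p = 1), and it kept its direction in each of its 12 alternatives, from -0.23 to -0.18 (adjusted p 0.477 to 1). In the authors' deposited table this was also the member with the lowest log2 fold change of the comparison, -0.21, with an adjusted p of 1.

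Separation of the groups was seen for 6 of the 10 members in Pem2, beside 37.9% of all genes (19.2% above and 18.7% below). Those below wild type were rpb8, rpb10 (262 and 265 against 286 and 273 scaled CPM), rpb6 (265 and 261 against 275 and 266) and rpb4. For rpb4, a stalk subunit gene, the levels were 150.9 and 138 in ell1Δ and 150.9 and 152 in wild type, so the groups all but touched. Those above were rpb1 (429 and 444 against 414 and 425) and rpb3 (144.7 and 141.6 against 132.8 and 141.3). The groups of rpb3 and rpb6 also all but touched. For rpb6 the nearest values were 265.4 in ell1Δ and 265.9 in wild type. The log2 differences other than that of rpb8 ran from -0.08 for rpb10 to 0.06 for rpb3, with SEs of 0.07 to 0.12. The 95% intervals of the 10 members lay between 0.724-fold and 1.24-fold.

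Other members overlapped between wild type and ell1Δ in both strains. The stalk gene rpb7 was at 136 and 125 scaled CPM in wild type and 137 and 130.2 in ell1Δ of ED666b, and at 135 and 131 against 132 and 128 in Pem2. The cleavage subunit gene rpb9 was at 39.5 and 42.2 against 39.9 and 38.4 in ED666b, and at 40.2 and 37.4 against 37.9 and 39.2 in Pem2. The shared subunit gene rpb5 was at 177 and 187 against 181 and 184 in ED666b, and at 182 and 182 against 183 and 172 in Pem2.

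**Figure D4:**
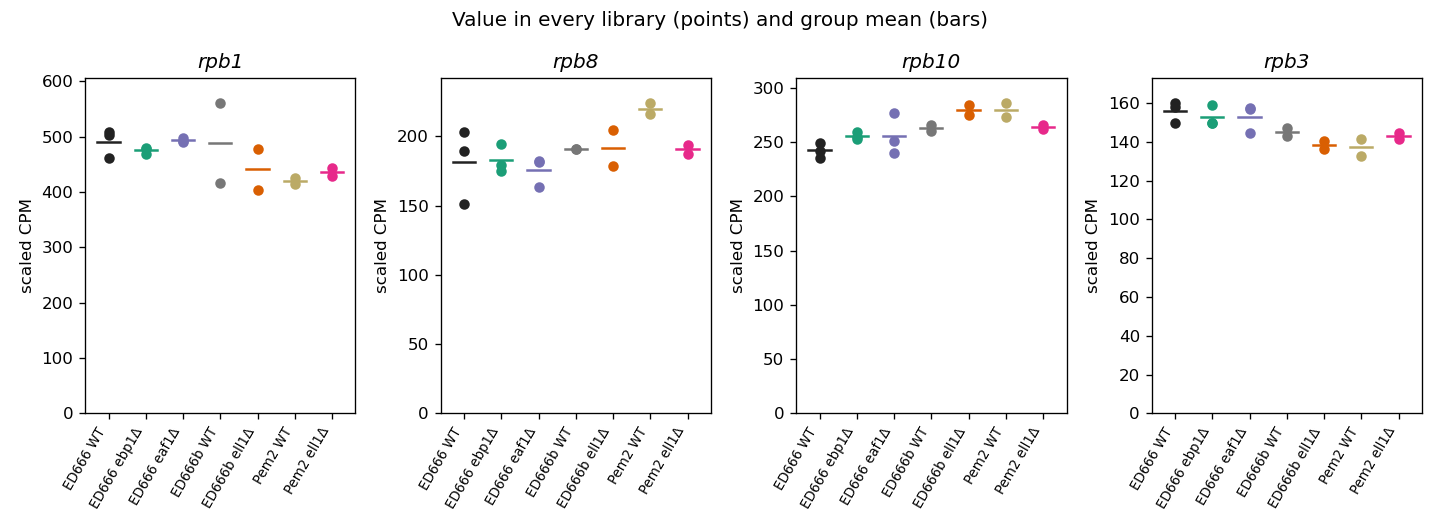
Scaled CPM of rpb1, rpb8, rpb10 and rpb3 in every library (points) with group means (bars), by group. The spread between the ED666b replicates of rpb1 (416 and 560.2 in wild type) exceeds the difference between groups, and rpb8 in Pem2 is at 187 and 194 in ell1Δ and 224 and 216 in wild type.

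The effect of ell1 loss on a subunit gene was not shown to differ between the strains. The difference of the effects, Pem2 minus ED666b, was tested for all 6160 genes by limma, which called 0.0325% of them and 0 of the 10 members; 0 members had an unadjusted p under 0.05, beside 1.01% of all genes, and edgeR and DESeq2 called 0. The largest differences were -0.20 for rpb8 (SE 0.17), 0.19 for rpb1 (SE 0.16) and -0.17 for rpb10 (SE 0.10), each at a limma adjusted p of 0.9997. The rpb1 difference rested on single ED666b libraries. It was 0.41 without wild type 1, -0.02 without wild type 2, 0.07 without ell1Δ replicate 1 and 0.32 without ell1Δ replicate 2. For rpb8 it was -0.30 and -0.11 without ell1Δ replicates 1 and 2 of ED666b. The 95% intervals of these differences were wider than those of the single effects and reached 0.673-fold (rpb8) and 1.46-fold (rpb1). In all 5 tests, fitted with all 17 libraries, every interval of every member lay inside a 1.5-fold change in either direction. These intervals rest on a residual SD per gene that is shared by all groups. For rpb1 that SD was 0.115, while its ED666b replicates differed by 0.43 in wild type and 0.24 in ell1Δ (log2). Its intervals may therefore be too narrow where ED666b is compared, and the 1.5-fold bound was not shown for rpb1 there.

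In the authors' deposited table no subunit gene was called in any of the 4 comparisons, with adjusted p-values of 1 throughout. The log2 fold changes there ran from -0.05 (rpb1) to 0.09 (rpb5) in ebp1Δ, from -0.05 (rpb6) to 0.08 (rpb10) in eaf1Δ, from -0.15 (rpb1) to 0.09 (rpb10) in ell1Δ of ED666b and from -0.21 (rpb8) to 0.06 (rpb3) in ell1Δ of Pem2.

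Of the other genes of the transcription machinery, on all the lists given below, 1 was called, in ebp1Δ. Over all genes 3.67% were called in that comparison. The mcs6 gene, for the kinase subunit of the general factor TFIIH that phosphorylates the tail of Rpb1, rose in ebp1Δ. Its level was 122, 121 and 134 scaled CPM in ebp1Δ and 98.3, 90.4 and 95.2 in wild type, all 3 above all 3 (log2 0.40, SE 0.07, limma adjusted p = 0.00683). The call held in 13 of 14 alternatives and ended when only the 6 compared libraries were fitted (limma adjusted p = 0.0984, over the alternatives 6.55e-05 to 0.0984). Its log2 difference was 0.10 in eaf1Δ, 0.06 in ell1Δ of ED666b and 0.19 in ell1Δ of Pem2 (limma adjusted p = 0.567, 0.998 and 1), and these were not tested against that in ebp1Δ.

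The other 18 general transcription factor genes of 19 tested, 7 polymerase I subunits, 2 subunits shared by polymerases I and III, 11 on the polymerase III list (rpc10 among them), 8 kinases and phosphatases of the Rpb1 tail, 4 assembly factors and rpb11 had no call in any of the 4 comparisons by limma. The medians of these lists in ebp1Δ were 0.05 for the general factors, 0.10 for polymerase I, 0.06 for polymerase III, 0.09 for the tail enzymes and -0.05 for the assembly factors, beside 0.01 over all genes. In eaf1Δ they were 0.0012, 0.09, 0.01, 0.05 and 0.01. In ell1Δ of ED666b they were 0.02, -0.0034, 0.02, -0.01 and 0.06, and in ell1Δ of Pem2 0.05, -0.07, -0.07, 0.00095 and -0.06. The ebp1Δ and eaf1Δ comparisons share their wild-type libraries. Among the polymerase I genes, nuc1, rpa2, rpa12, rpa43, rpa49 and ker1 were lowest in wild type 3, and rpa34 in wild type 1. For ker1 the wild types 1, 2 and 3 were at 143, 134 and 93.9 scaled CPM. List medians without wild type 3 were not computed. For rpb11 the log2 differences in the 4 comparisons, in the order ebp1Δ, eaf1Δ, ED666b and Pem2, were -0.01, -0.05, 0.08 and -0.05, with SEs of 0.06 to 0.07.

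Correlations between members within the 3 sets of libraries lay on both sides of 0. After centring each gene on the mean of its set, the 45 pairs of members had correlations across the 17 libraries from -0.78 to 0.64, with a median of 0.01, and 23 were positive. The stalk partners rpb4 and rpb7 had a correlation of 0.53, and the catalytic partners rpb1 and rpb2 one of -0.19. The highest was between rpb6 and rpb7 and the lowest between rpb1 and rpb7. The genes most like the mean of the members, among 4695 others at 20 scaled CPM or more, were rps2202 (0.899), ppk1 (0.873), tam10 (0.842), prs1 (0.824) and pth1 (0.819). All these correlations are descriptions over libraries that share depth, scaling and replicate series.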

How the data were processed

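PolyA RNA-seq of 17 libraries was analysed, from a deposited table (7014 lines, 1 repeated identifier). Its scaled CPM columns are the authors' signal. Dividing a library by 1 constant returned whole reads (100% of values within 0.01), and library totals have a geometric mean of 1000000 in each of 2 separately scaled sets of 9 and 8 libraries. The authors also deposited RPKM, per the file headers, used to compare genes per length. The authors' log2 fold changes stand in the deposited table, beside p-values of theirs, raw and adjusted; none entered a test. The build ASM294v2 and the tools TopHat2 2.1.1, SAMtools 1.3.1, edgeR, Bowtie2 2.2.9 and MACS2 are named per the submitters' processing notes. Which tool counted the reads was not given in the sources used here. A gene table supplied was of a later build (6845 identifiers matched) and gave names and neighbours only.

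The filter kept 6160 genes that reached 1 scaled CPM in 2 or more libraries, all 10 members among them. One limma 3.58.1 model (R 4.3.3) of 7 group means was fitted to log2(scaled CPM + 1), which understates changes of low genes; it had 10 residual and 2.61 prior degrees of freedom. P-values were adjusted by Benjamini-Hochberg over all genes tested, with calls at 0.05. Intervals are 95% limma intervals, from a residual SD per gene shared by all groups. Alternatives were a pseudocount of 0.5, no filter, quantile normalization, RPKM, edgeR 4.0.16 and DESeq2 1.42.0 on recovered reads, only the compared libraries, a replicate block, and each library left out. On simulated reads the fit recovered most of the changed genes in ebp1Δ and in ell1Δ of ED666b, and in the shallower ED666 set its false calls exceeded the nominal rate. Since the signal is a normalized value and no count, the count tools served as alternatives only. Named genes were the members, the deleted genes, up to 4 called genes per list and comparison, and the 5 genes most correlated with the members; trp3, syn1, mid2, SPNCRNA.1021 and SPNCRNA.1496 were added as overlapping genes, ura4 and mfm2 as strain checks. Members and lists were chosen with earlier results of these data known.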

Additional observations from a re-analysis of the deposited data

Results flagged for a closer look

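In 2 of the 10 subunit genes every ell1Δ library lay on one side of wild type in ED666b and on the opposite side in Pem2. For rpb10 the ell1Δ libraries were above wild type in ED666b and below it in Pem2, and the difference of the effects, Pem2 minus ED666b, was -0.17 (log2, SE 0.10, limma adjusted p = 0.9997). For rpb3 the ell1Δ libraries were below wild type in ED666b and above it in Pem2, with a difference of 0.13 (log2, SE 0.10, limma adjusted p = 0.9997). The nearest rpb3 values in Pem2 were 141.6 scaled CPM in ell1Δ and 141.3 in wild type, so these groups all but touched. Of all 6160 genes, 300 (4.87%) showed such opposite sides.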

How the results depend on the processing

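No member was called in any of the 680 member values over all alternatives, of which 5 had an unadjusted p under 0.05 (rpb1 in ell1Δ of ED666b and in the difference, both without ED666b wild type 1; rpb5 in ebp1Δ without wild type 2; rpb8 in Pem2 with only the compared libraries; rpb10 in the difference by DESeq2). Of these values 670 moved by less than the moderated residual SD. The other 10 were rpb8 without ED666 wild type 3 and rpb1 without single ED666b libraries. Counts of all genes called moved more. In ebp1Δ the count was 226, with 65 when only the compared libraries were fitted and 134 to 368 with each library left out (368 without wild type 3, 134 and 141 without ebp1Δ replicates 2 and 3). In eaf1Δ it was 52, with 27 by edgeR, 122 by DESeq2, 11 with only the compared libraries and 21 to 70 with each library left out (24 and 21 without eaf1Δ replicates 2 and 3). In ell1Δ of ED666b it was 32, with 88 by DESeq2 and 5 to 8 with each library left out. In ell1Δ of Pem2 it was 15, with 23 on RPKM, 40 by edgeR, 78 by DESeq2, 0 with only the compared libraries (530 genes at an unadjusted p under 0.05) and 3 to 16 with each library left out (3 without wild type 1 or ell1Δ replicate 2, 9 without ell1Δ replicate 1). The difference of the ell1Δ effects had 2 called genes, and 4 by DESeq2. The share of calls that rose was 25.2% in ebp1Δ, with 35.6% under quantile normalization, 9.23% with only the compared libraries and 38.9% without wild type 3. It was 61.5% in eaf1Δ, with 45.9% by DESeq2 and 50.8% without eaf1Δ replicate 1. In ell1Δ of ED666b it was 78.1%, with 64.8% by DESeq2 and 37.5% to 50% with each library left out. In ell1Δ of Pem2 it was 73.3%, with 93.8% without wild type 2 and 88.9% without ell1Δ replicate 1. Leaving out a library of a pair assumes that the lone sample varies like the other groups. With the replicate block the counts were 340, 91, 45 and 28 in the 4 comparisons and 2 for the difference, with 0 members called; rpb1 in ED666b had an adjusted p of 0.769 in that limma fit. Same-numbered libraries had correlated deviations of -0.22 to 0.24 in ED666, and of 0.65 in ED666b and 0.66 in Pem2, where the 2 pairs of each set give the same value by construction. The numbers were treated as names only.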
